A study of Mus musculus with 6 samples.

Results

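Cytochrome P450 genes of families 1 to 4 were examined in primary hepatocytes of male C57Bl/6J mice exposed to tumour necrosis factor alpha (TNFα). Membership followed the gene symbol: every gene listed on the array as Cyp1, Cyp2, Cyp3 or Cyp4 followed by a letter was taken, whatever its signal. This gave 70 genes, measured by 103 probes, out of 19057 genes on the platform that had a probe of their own. Cytochrome P450 enzymes are haem proteins of the endoplasmic reticulum that insert oxygen into lipophilic molecules with electrons from NADPH. Members of families 1 to 3 in liver oxidise drugs, other foreign compounds, steroids and bile acids, whereas family 4 enzymes mainly hydroxylate the ends of fatty acids and eicosanoids. Many of these genes are controlled in hepatocytes by the nuclear receptors CAR and PXR and by HNF4α, and hepatic P450 levels are known to fall during inflammation.

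The study held 6 single-colour Illumina BeadChip arrays, 2 in each of 3 groups: hepatocytes given 2 ng/mL recombinant murine TNFα for 2 days, hepatocytes given that dose for 2 hours, and untreated hepatocytes. All groups, the untreated one included, were kept on collagen in Williams' E medium with 1 nM insulin, 50 nM dexamethasone and fetal calf serum at 5%. Dexamethasone, a glucocorticoid, is itself an inducer of several P450 genes, and every group carried it. The labels give neither the age of the mice nor the source of each replicate, so the spread of arrays within groups may be technical. The p-values below rest on that spread, pooled over the 3 groups and drawn by limma towards its typical size over all genes. The typical spread weighed most, with 21.2 prior degrees of freedom beside 3 residual ones for each gene. Nor do they give the culture time of the untreated cells, so exposure to TNFα and time in culture cannot be told apart at 2 days. In RNA from whole cultures, fewer cells of a type and less RNA per cell cannot be told apart either.

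Of the 70 genes, 44 had at least 1 probe above the array's median intensity on at least 2 arrays and were tested. They stood among 13438 genes tested with limma. The remaining 26 genes, measured by 30 probes, gave intensities between 106.8 and 158.8 on every array, close to the array medians of 143.2, and were not tested. They included Cyp1a1 and Cyp1b1, targets of the aryl hydrocarbon receptor, and the vitamin D 25-hydroxylase Cyp2r1. They also included Cyp2c29, Cyp2b9, Cyp2b13, Cyp2a4, Cyp4a14 and 5 of the 7 Cyp2j genes. The Alb probe on this platform gave a mean of 145, 154 and 159.8 units after 2 days, after 2 hours and in untreated cells, so a signal near the median does not show that a gene was silent.

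After 2 days of TNFα, 18 of the 44 tested P450 genes fell and 1 rose relative to untreated cells. Members that fell made up 40.9% of those tested, beside 5.92% of all 13438 genes, and the gene that rose made up 2.27%, beside 6.74% of all genes. Falls of at least 2-fold were found for 12 members, or 27.3%, beside 0.662% of all genes. The median log2 change was -0.22 over the tested members and 0.01 over all genes tested. In 17 of the 18 members that fell, both arrays of every group lay above the array median. The exception, Cyp3a25, passed the filter only through the cells exposed for 2 hours and the untreated cells.

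Cyp2b10, a drug-metabolising enzyme and the classical target of the nuclear receptor CAR, had intensities of 912 and 879 after 2 days, 6402 and 5198 after 2 hours, and 7737 and 7958 in untreated cells. The 3 groups did not overlap, and the step below untreated cells was small at 2 hours and large at 2 days. It was 8.76-fold lower after 2 days than in untreated cells (log2 change -3.13, SE 0.11, limma adjusted p = 2.54e-16). Cyp2b23, a paralog on the same chromosome, had intensities of 189.97 and 184 after 2 days, 1198 and 929.9 after 2 hours, and 1299 and 1615 in untreated cells. Its groups were ordered as those of Cyp2b10 and did not overlap. It was 7.76-fold lower after 2 days (log2 change -2.96, SE 0.12, limma adjusted p = 2.02e-15). Its 2-day level was not far above the array medians of 143.2, and the size of the fall depended on the processing. Over the alternatives, its log2 change ran from -3.83, with background correction of the intensities by normexp, to -1.55. With normexp, Cyp2b10 changed by -3.27.

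Cyp3a11, a PXR target and the main mouse counterpart of human CYP3A4, had intensities of 311 and 476 after 2 days, 2240.0 and 2369 after 2 hours, and 3540.0 and 2567 in untreated cells. Both arrays at 2 days were far below the other 4. The gene was 7.83-fold lower after 2 days than in untreated cells (log2 change -2.97, SE 0.15, limma adjusted p = 1.37e-13). Cyp2a12, a bile acid 7α-hydroxylase in the mouse and one of the 3 members brightest in untreated cells, had 988 and 1301 units after 2 days, 7191 and 8516 after 2 hours, and 9114 and 8589 in untreated cells. Here too the 2-day arrays stood apart, while the 2-hour arrays lay just below the untreated ones. The fall was 7.80-fold (log2 change -2.96, SE 0.12, limma adjusted p = 1.84e-15). Cyp2a5, the mouse coumarin 7-hydroxylase, had 1281 and 1224 units after 2 days, 4357 and 4135 after 2 hours, and 5447 and 4634 in untreated cells. The groups did not overlap, and the gene was 4.01-fold lower after 2 days (log2 change -2.00, limma adjusted p = 3.14e-13).

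**Figure D1:**
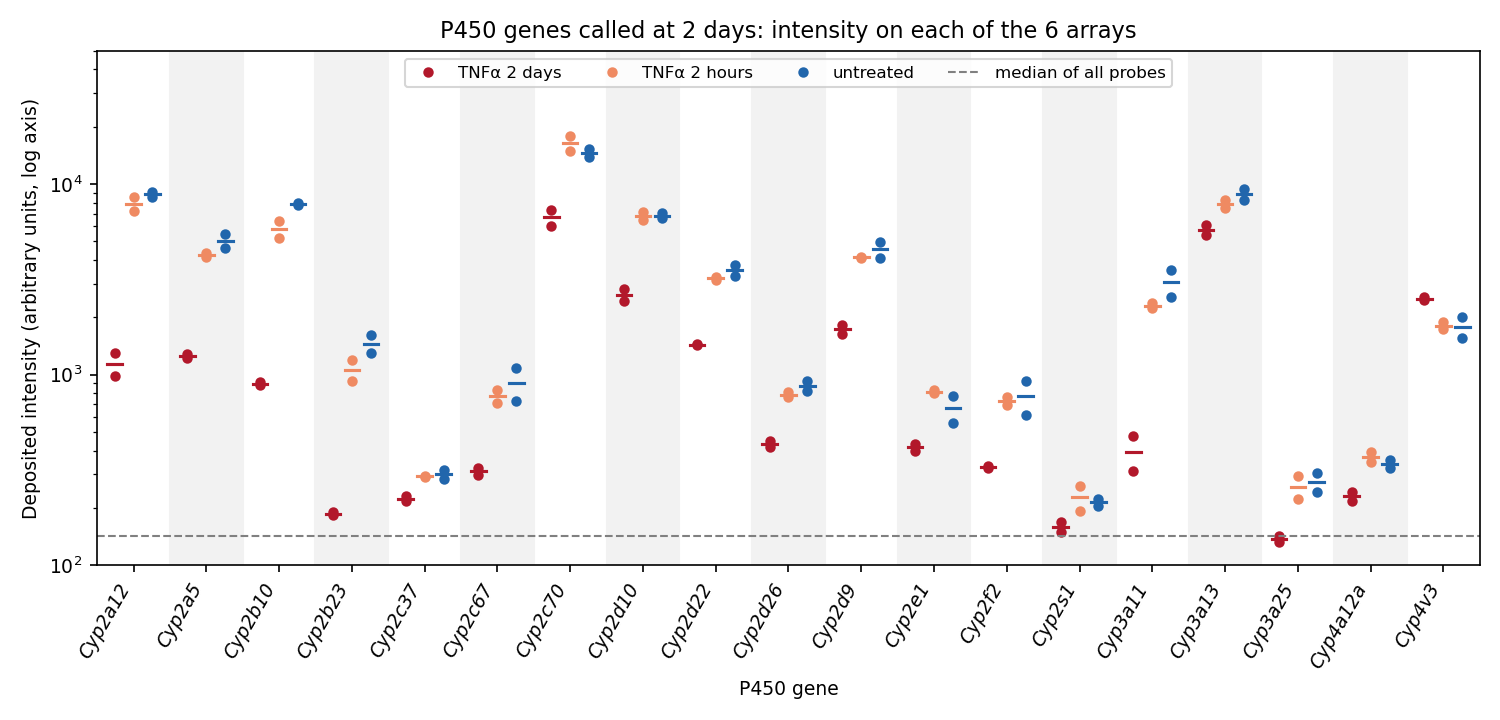
Intensity of the 19 P450 genes called at 2 days, on a log axis, for each array of cells exposed to TNFα for 2 days (left of each trio), for 2 hours (middle) and of untreated cells (right). Short lines are group means and the dashed line is the median of all probes. In the deposited intensities, the 2-day arrays lie farthest below the untreated ones for Cyp2b10 (8.76-fold), and above them for Cyp4v3.

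The 250 bases upstream of the start are shown for these 5 genes, since the falls of 4-fold or more all lay among them, and for Cyp2b9, a Cyp2b paralog without a passing probe. The sequences come from RefSeq on GRCm38.p6, whose promoter table matched 54 of the 70 genes, and run 5′ to 3′ on the gene's strand. They lie at chr7:25897408-25897657 (plus strand) for Cyp2b10, chr7:26686431-26686680 (minus) for Cyp2b23, chr7:26173159-26173408 (plus) for Cyp2b9, chr7:26835089-26835338 (plus) for Cyp2a5, chr7:27028840-27029089 (plus) for Cyp2a12 and chr5:145879855-145880104 (minus) for Cyp3a11. Capitals mark matches to 5 motifs, searched on both strands. The first is CAAAGTCCA, of the type bound by HNF4α. The second is AGGTCA, the half-site shared by many nuclear receptors. The third is TTGCNNAA, of the type bound by C/EBP factors. The fourth is TATAAA, the TATA box. The fifth, an NF-κB-type motif, has no match in these stretches.
Cyp2b10: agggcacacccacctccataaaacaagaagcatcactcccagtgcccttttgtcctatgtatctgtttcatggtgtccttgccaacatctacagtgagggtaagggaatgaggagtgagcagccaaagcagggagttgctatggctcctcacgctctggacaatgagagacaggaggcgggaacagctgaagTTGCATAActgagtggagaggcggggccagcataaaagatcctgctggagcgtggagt
Cyp2b23: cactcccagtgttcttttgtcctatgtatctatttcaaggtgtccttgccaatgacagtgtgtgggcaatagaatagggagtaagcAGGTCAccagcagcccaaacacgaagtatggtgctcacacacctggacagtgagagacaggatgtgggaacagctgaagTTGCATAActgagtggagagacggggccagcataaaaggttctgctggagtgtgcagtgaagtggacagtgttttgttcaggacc
Cyp2b9: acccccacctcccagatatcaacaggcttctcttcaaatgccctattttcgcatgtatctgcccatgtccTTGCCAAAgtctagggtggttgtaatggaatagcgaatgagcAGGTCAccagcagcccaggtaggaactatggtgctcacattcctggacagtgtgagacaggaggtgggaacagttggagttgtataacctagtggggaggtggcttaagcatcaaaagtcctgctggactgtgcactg
Cyp2a5: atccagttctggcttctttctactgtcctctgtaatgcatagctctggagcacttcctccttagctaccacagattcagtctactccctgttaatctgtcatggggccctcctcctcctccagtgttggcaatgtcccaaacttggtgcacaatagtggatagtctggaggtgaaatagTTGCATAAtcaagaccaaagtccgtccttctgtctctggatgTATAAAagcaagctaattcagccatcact
Cyp2a12: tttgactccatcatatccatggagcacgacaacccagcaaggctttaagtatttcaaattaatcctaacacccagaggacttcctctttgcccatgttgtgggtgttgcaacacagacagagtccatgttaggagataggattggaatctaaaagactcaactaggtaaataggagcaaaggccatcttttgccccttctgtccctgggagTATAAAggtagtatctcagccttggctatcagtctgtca
Cyp3a11: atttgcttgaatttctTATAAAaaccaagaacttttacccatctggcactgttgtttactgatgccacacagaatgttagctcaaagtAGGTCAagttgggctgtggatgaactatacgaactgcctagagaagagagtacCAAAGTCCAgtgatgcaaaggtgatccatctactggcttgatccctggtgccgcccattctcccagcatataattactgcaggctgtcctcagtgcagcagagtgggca
The matches marked in these 6 stretches do not overlap each other. The C/EBP-type match TTGCATAA lies in the promoters of Cyp2b10, Cyp2b23 and Cyp2a5, with its first base 58, 85 and 71 bases before the start. Cyp2a12 holds only a TATA box, 39 bases before the start. Cyp2a5 also holds the letters TATAAA, 29 bases before the start. Cyp3a11 holds the HNF4α-type letters 109 bases, AGGTCA 162 bases and TATAAA 234 bases before the start. The untested Cyp2b9 also holds a C/EBP-type match, TTGCCAAA, 180 bases before its start.

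Among all promoters of the members, 61 for 54 genes, the HNF4α-type motif was found in 13.1%, beside 0.384% of all 32851 promoters in the table. The C/EBP-type motif was found in 27.9% of the members' promoters, beside 9.56% of all. The half-site was found in 24.6%, beside 14.0%, and the TATA box in 34.4%, beside 12.4%. The NF-κB-type motif was found in 0 of the 61, beside 1.41% of all promoters. In the 17 promoters of 16 members that fell at 2 days, the same motifs were found in 17.6% (HNF4α type), 41.2% (C/EBP type), 35.3% (half-site) and 52.9% (TATA box). Promoters of paralogs descend from a common sequence and are not independent. Cyp2b10 and Cyp2b23 were identical over 78.6% of an alignment length of 229, and Cyp2b9 and Cyp2b13 over 99.2% of a length of 250. Gaps inside an alignment count towards these lengths. A match describes the letters in this window and is not a measured binding site, and a missing match says only that those letters are not there.

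Among the Cyp2c genes, whose enzymes oxidise drugs, arachidonic acid and bile acids, 3 of 9 tested members fell at 2 days. The median log2 change of the subfamily was -0.14. This median includes the uncalled and dim Cyp2c38, Cyp2c40, Cyp2c54 and Cyp2c65, with means of 145, 139, 146 and 177 units in untreated cells. Cyp2c70, which forms muricholic acids in the mouse, had 6047 and 7342 units after 2 days, 14820.0 and 17851 after 2 hours, and 15331 and 13849 in untreated cells. The 2-hour and untreated arrays overlapped, and the 2-day arrays lay below all 4. It was 2.19-fold lower after 2 days (log2 change -1.13, limma adjusted p = 5.68e-08). Cyp2c67 had 299 and 322 units after 2 days, 713 and 830.3 after 2 hours, and 1083 and 731 in untreated cells. Its 2-hour and untreated arrays overlapped too, and after 2 days it was 2.86-fold lower (log2 change -1.52, limma adjusted p = 3.80e-09). Cyp2c37 fell by 0.43 on the log2 scale (limma adjusted p = 0.00440), a call that was lost without replicate 1 of the 2-day group and without replicate 1 of the untreated group.

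The Cyp2d genes, the mouse counterparts of human CYP2D6, fell at 2 days in 4 of 6 tested members, with a median log2 change of -1.16. Cyp2d10 had 2426 and 2810.3 units after 2 days, 7155 and 6488 after 2 hours, and 6628 and 7020.1 in untreated cells. Its 2-hour and untreated arrays overlapped, and it was 2.61-fold lower after 2 days (log2 change -1.39, limma adjusted p = 3.41e-10). Cyp2d9, a testosterone 16α-hydroxylase of male mouse liver, had 1635 and 1821 units after 2 days, 4168 and 4083 after 2 hours, and 4980.4 and 4116 in untreated cells. The 2-day arrays again lay below the other 4, which overlapped, and the gene was 2.62-fold lower (log2 change -1.39, limma adjusted p = 4.79e-10). Cyp2d22 had 1426 and 1449.7 units after 2 days, 3154 and 3255 after 2 hours, and 3779 and 3297 in untreated cells. Its 2-hour arrays lay just below the untreated ones, and at 2 days it was 2.46-fold lower (log2 change -1.30, limma adjusted p = 6.18e-10). Cyp2d26 had 416 and 451 units after 2 days, 808 and 763 after 2 hours, and 825 and 931 in untreated cells. The order of its groups was that of Cyp2d22, and it was 2.02-fold lower at 2 days (log2 change -1.02, limma adjusted p = 5.68e-08).

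The 3 tested genes that are single members of their subfamilies and fell at 2 days were Cyp2f2, Cyp2e1 and Cyp2s1. Cyp2f2, which activates naphthalene to a toxic epoxide in mouse tissues, had 326 and 331 units after 2 days, 697 and 764 after 2 hours, and 926 and 613 in untreated cells. The untreated arrays spread widely and overlapped the 2-hour ones, and the 2-day arrays lay below both (2.29-fold lower, log2 change -1.20, limma adjusted p = 2.16e-07). Cyp2e1, which oxidises ethanol and paracetamol, had 434 and 400.2 units after 2 days, 830.3 and 799 after 2 hours, and 778 and 558 in untreated cells. Its 2-hour arrays lay above both untreated arrays, unlike those of the genes above. It was 1.58-fold lower after 2 days (log2 change -0.66, limma adjusted p = 0.000308), a call lost with background correction of the intensities by normexp. Cyp2s1 fell by 0.43 on the log2 scale (limma adjusted p = 0.0170), and its call was lost with normexp, with a mean over the probes of each gene (it has 1 probe, so only the fit over all genes changed), without replicate 2 of the 2-day group and without replicate 2 of the untreated group. Its intensities at 2 days, 169 and 149, were close to the array median.

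In the Cyp3a subfamily, whose enzymes oxidise the widest range of drugs and steroids, 3 of 4 tested members fell at 2 days. Beside Cyp3a11, these were Cyp3a25 (log2 change -0.98, limma adjusted p = 2.10e-06) and Cyp3a13 (log2 change -0.62, limma adjusted p = 0.000145). Cyp3a25 had 143 and 133 units after 2 days, 223 and 295 after 2 hours, and 305 and 243 in untreated cells. The 2-day level of Cyp3a25 was thus at the array median, and its fall may be understated. With normexp its log2 change was -1.94. Cyp3a13, another of the 3 members brightest in untreated cells, had 6109 and 5399 units after 2 days, 7498 and 8265 after 2 hours, and 9435 and 8265 in untreated cells. Its 2-day arrays lay below the other 4, but its call was lost with normexp.

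Fewer family 4 genes were called, a difference between families that was not tested. Some uncalled members were dim: Cyp4a31, Cyp4f17 and Cyp4f40 averaged 158, 154 and 154 units in untreated cells, near the array medians of 143.2. A fall of these could hardly have been seen. The uncalled Cyp4f13, Cyp4f16 and Cyp4f14 were brighter, with 1917, 518 and 343 units in untreated cells. Among the Cyp4a genes, fatty acid ω-hydroxylases of which several are PPARα targets, 1 of 3 tested members fell at 2 days. This was Cyp4a12a, an ω-hydroxylase of arachidonic acid in male mice, with 243 and 219 units after 2 days, 348 and 394 after 2 hours, and 357 and 326 in untreated cells (log2 change -0.56, limma adjusted p = 0.000363). Of the Cyp4f genes, whose products include hydroxylases of leukotriene B4 and vitamin E, 0 of 6 tested members were called at 2 days by limma. Their log2 changes lay between -0.28 and 0.29, and at an unadjusted p under 0.05 there were 2 with a negative and 1 with a positive change. Both tested Cyp4b genes were uncalled as well, and neither had an unadjusted p under 0.05 at 2 days. The same held for Cyp2g1, Cyp2u1 and the tested Cyp2j genes, arachidonic acid epoxygenases, whose log2 changes at 2 days lay between -0.10 and 0.19. The group means of Cyp2g1, Cyp2u1 and these Cyp2j genes were at most 152 units, near the array medians.

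Cyp4v3, the mouse counterpart of the human fatty acid ω-hydroxylase CYP4V2, was the 1 member that rose at 2 days. It had 2544 and 2459 units after 2 days, 1732 and 1891 after 2 hours, and 2005 and 1555 in untreated cells. Both 2-day arrays lay above the other 4, which overlapped. The log2 change from untreated cells was 0.50 (SE 0.11, limma adjusted p = 0.00262), and the call was lost with normexp and without replicate 2 of the untreated group. Cyp1a2, the constitutive hepatic member of family 1 and an oxidiser of caffeine, was uncalled, with 195 and 181 units after 2 days, 199 and 201 after 2 hours, and 192 and 182 in untreated cells.

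**Figure D2:**
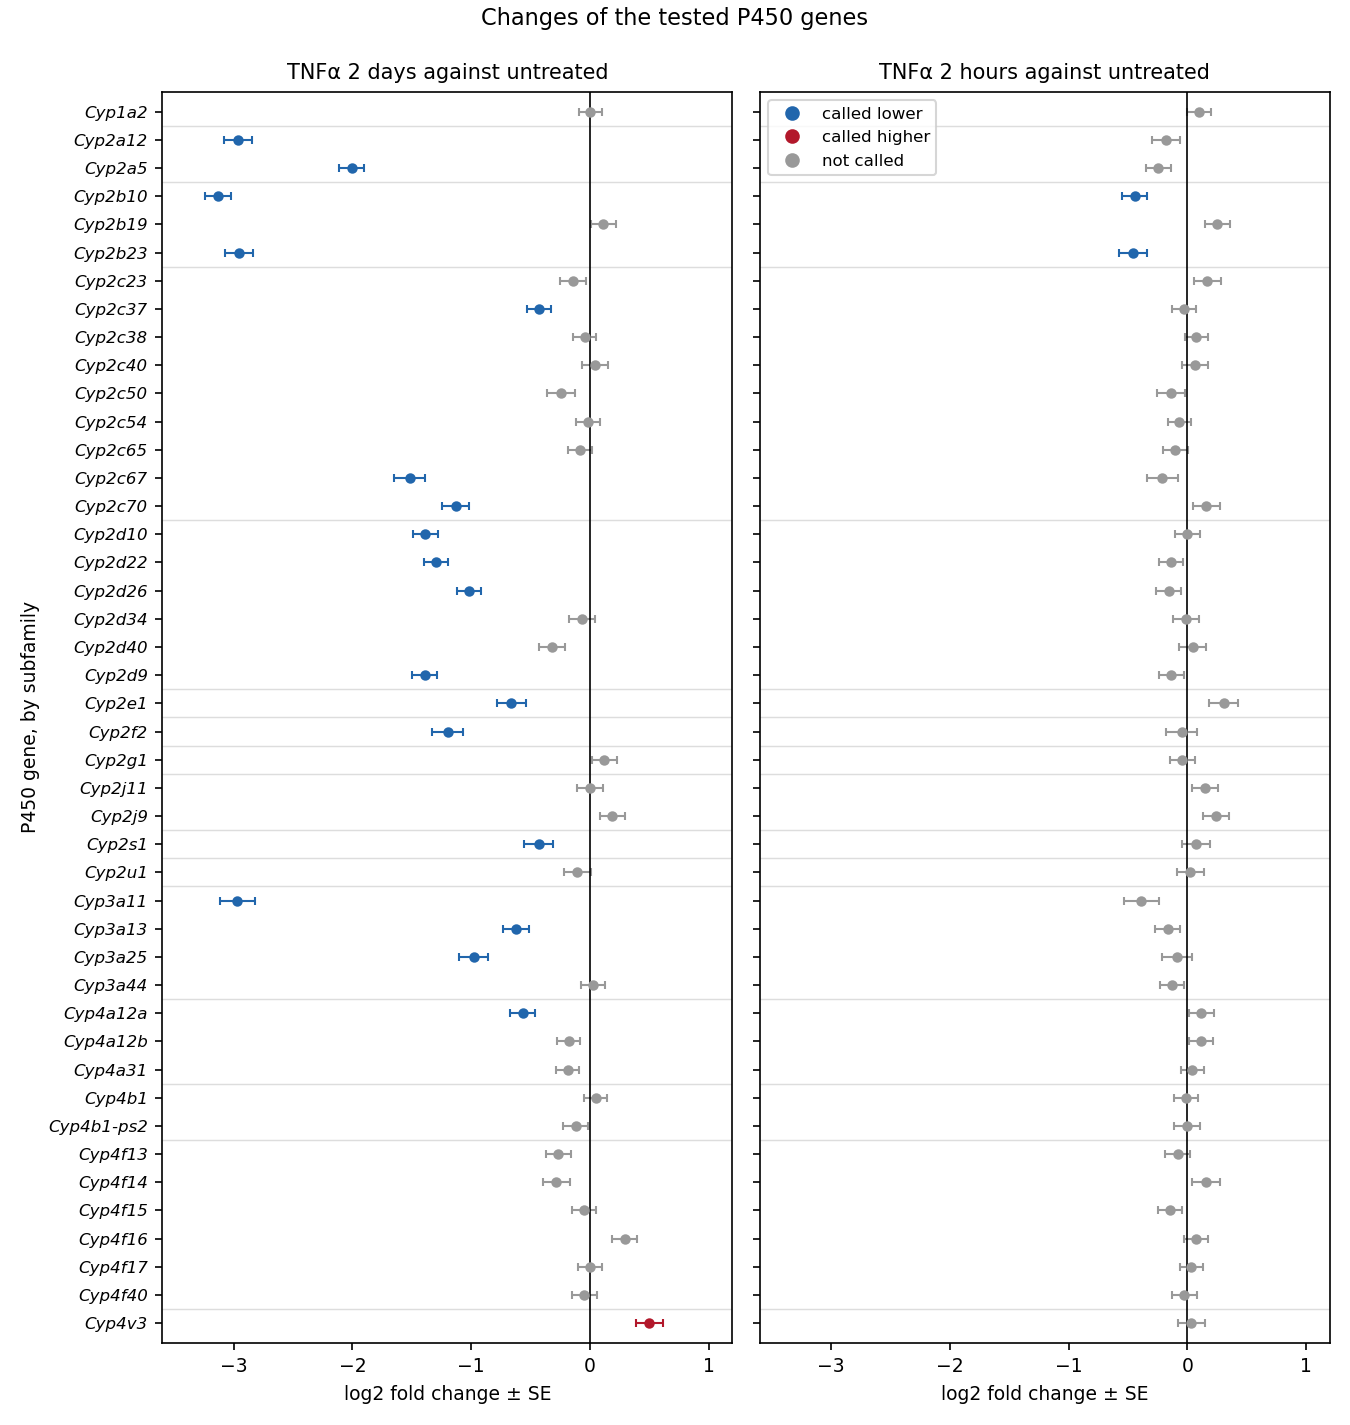
Log2 fold change of each of the 44 tested P450 genes, grouped by subfamily down the page, for 2 days against untreated (left) and 2 hours against untreated (right). Bars are standard errors from limma and colours mark calls. At 2 days 18 points are called lower and 1 higher, and at 2 hours 2 are called lower, Cyp2b10 and Cyp2b23.

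After 2 hours of TNFα, 2 of the 44 tested P450 genes fell relative to untreated cells, which is 4.55% beside 1.06% of all genes. These were Cyp2b10 (log2 change -0.44, SE 0.11, limma adjusted p = 0.0177) and Cyp2b23 (log2 change -0.46, SE 0.12, limma adjusted p = 0.0347), both lower on each 2-hour array than on either untreated array. Limma called 0 members higher, beside 1.76% of all genes. At an unadjusted p under 0.05 there were 3 members higher and 4 lower, beside 695 and 888 of all 13438 genes. Of the 3 higher members, Cyp2b19 and Cyp2j9 averaged 130 and 129 units in untreated cells, near the array medians of 143.2. The median log2 change was -0.01 over the tested members and -0.01 over all genes. Cyp3a11 had a log2 change of -0.39 that was not called (limma adjusted p = 0.230). Without replicate 2 of the untreated group, Cyp3a11 (-0.62, limma adjusted p = 0.0368) and Cyp2c67 (-0.49, limma adjusted p = 0.0383) were the 2 members called lower. Cyp2e1, with a log2 change of 0.31 (limma adjusted p = 0.261), was called higher without replicate 1 of the untreated group (0.55, limma adjusted p = 0.0115). Neither call at 2 hours held under every alternative: each was lost with normexp, with the mean over probes, without replicate 2 of the 2-hour group and without replicate 2 of the untreated group. The call of Cyp2b10 was also lost without replicate 1 of the untreated group, and that of Cyp2b23 with cyclic loess.

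Cells exposed for 2 days were set against cells exposed for 2 hours, a difference of these 2 groups' means in which the untreated arrays add only to the estimate of the spread. Of the 44 members, 21 were lower at 2 days than at 2 hours, or 47.7% beside 6.67% of all genes, and 1 was higher, or 2.27% beside 8.63% of all genes. The median log2 difference was -0.26 over the members and 0.01 over all genes. The widest differences were those of Cyp2a12 (-2.79), Cyp2b10 (-2.69), Cyp3a11 (-2.58) and Cyp2b23 (-2.50). Cyp2e1 was lower by a log2 difference of -0.97 (limma adjusted p = 1.62e-06). Members that were called here and not against untreated cells were Cyp2d40 (-0.36, limma adjusted p = 0.0263), Cyp4a12b (-0.30, limma adjusted p = 0.0456) and Cyp4f14 (-0.44, limma adjusted p = 0.00772), an ω-hydroxylase of leukotriene B4 and vitamin E. Each of those 3 calls was lost under at least 1 alternative. Cyp4v3 was higher at 2 days (0.47, limma adjusted p = 0.00445), a call that was lost with normexp and without replicate 1 of the 2-hour group.

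The array held over 1 passing probe for 11 of the tested members, and 28 probes in all were fitted on their own for these genes. For 4 of the 8 such genes called at 2 days, every passing probe was called lower: Cyp2b10, Cyp2c37, Cyp2c67 and Cyp2d26. The size still varied. The brighter Cyp2b10 probe changed by -3.13, while the dimmer one had 150.1 and 139 units after 2 days, 225 and 172 after 2 hours, and 203 and 236 in untreated cells, a log2 change of -0.60. The 3 Cyp2d26 probes changed by -1.02, -0.95 and -0.73, and the 2 Cyp2c67 probes by -1.52 and -0.53.

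Probes disagreed on the call for Cyp2a5, Cyp2b23, Cyp2d22 and Cyp3a13. Of the 5 Cyp2a5 probes, 1 changed by -2.00 and 1 by -0.53, both called, whereas the other 3 changed by -0.20, -0.18 and -0.13 and were not called. The probe with -0.53 had 1772 and 1690.2 units after 2 days, 2091 and 2126 after 2 hours, and 2522 and 2490.3 in untreated cells, so it was well above the array median in every group. The size of the Cyp2a5 fall therefore depends on the probe: averaged over its 5 probes, the log2 change was -0.61. The second Cyp2b23 probe (log2 change -0.14) and the second Cyp2d22 probe (-0.08) were both close to the array median in every group. The 3 Cyp3a13 probes changed by -0.62, -0.52 and -0.30, the last of them not called. Cyp4f16, uncalled against untreated cells, had 1 probe of 3 that was called higher at 2 days than at 2 hours (log2 difference 0.31). Probe sequences were not used here, so signal shared between paralogs, such as Cyp2b10 and Cyp2b23 with their changes of -3.13 and -2.96, was not tested.

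**Figure D3:**
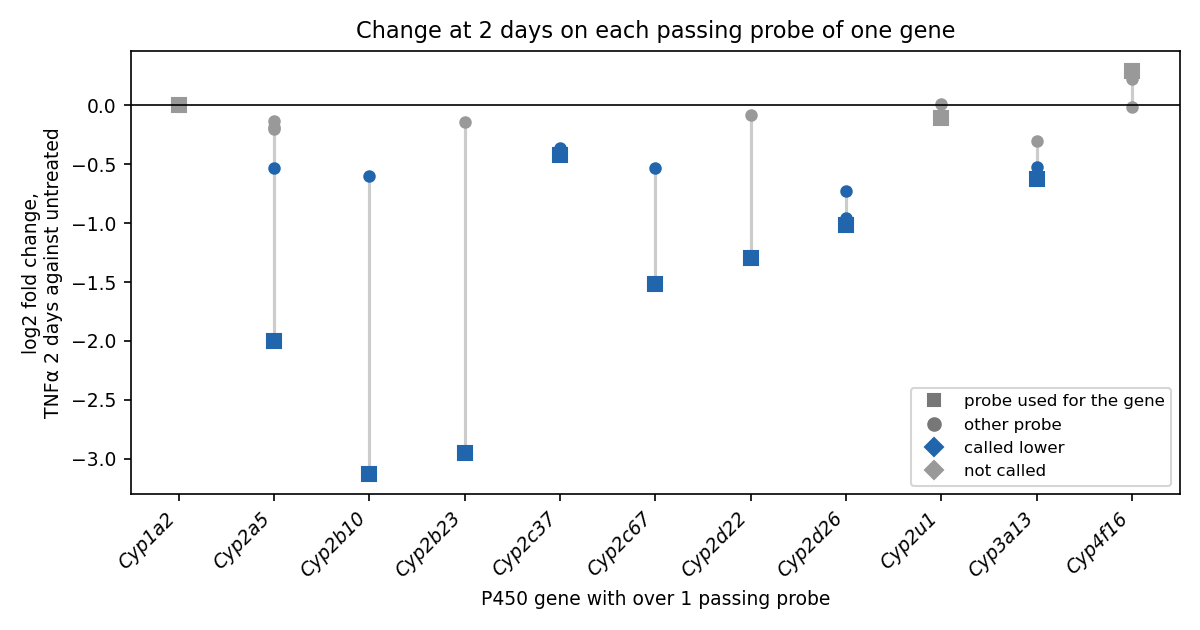
Log2 fold change at 2 days against untreated on every passing probe of the 11 P450 genes that have over 1, with squares for the probe that stands for the gene, circles for its other probes and blue for probes called lower. The Cyp2a5 probes run from -2.00 to -0.13, and those of Cyp2d26 from -1.02 to -0.73.

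By chromosome, 7 of the 9 tested members on chromosome 7 fell at 2 days, as did 4 of 6 on chromosome 15, 3 of 9 on chromosome 19, 3 of 4 on chromosome 5, 1 of 7 on chromosome 4 and 0 of 6 on chromosome 17. These groups largely follow the subfamilies, since P450 paralogs lie in clusters. Within the chromosome 7 cluster the calls were not uniform along the gene order. Cyp2b23 (-2.96) was followed by the uncalled Cyp2b19 (0.11) and Cyp2g1 (0.12), and these by Cyp2a5 (-2.00), Cyp2a12 (-2.96) and Cyp2f2 (-1.20). The 2 uncalled genes were dim, however. In untreated cells Cyp2b19 averaged 130 and Cyp2g1 139 units, below the array medians of 143.2, so a fall of either could hardly have been seen. Level also followed the calls: the 18 members that fell and the 1 that rose were all among the 27 with a mean of at least 200 units over the 6 arrays. The other 17 had log2 changes between -0.19 and 0.19 at 2 days. At their level, background left in the intensities may understate any change. With normexp background correction, no member uncalled at 2 days gained a call. Normexp also left fewer calls over all genes, so this cannot decide whether their changes were understated.

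Genes that act with or on the P450 enzymes were read from lists of their own. Over all 13438 genes, 6.74% rose and 5.92% fell at 2 days, and 1.76% rose and 1.06% fell at 2 hours. The lists from here on are small, and their counts were not tested against these shares. Electrons reach P450 enzymes through cytochrome P450 reductase, which was not analysed here, and through cytochrome b5 and its reductase. Of the 5 tested genes of this group, limma called 0 at 2 days and 0 at 2 hours, with 1 under an unadjusted p of 0.05 in each comparison. Of 11 tested genes of haem synthesis and breakdown, 2 rose and 1 fell at 2 days, and 1 rose and 1 fell at 2 hours. Alas1, the rate-limiting enzyme of haem synthesis in liver, averaged 5292 ± 440.3 units after 2 days, 5029.7 ± 11.2 after 2 hours and 8331 ± 480.0 in untreated cells (SD, n = 2 each). It was lower than in untreated cells at both times (log2 changes -0.66 and -0.73), though the call at 2 hours was lost with normexp. Hmox1, the inducible haem oxygenase, averaged 1514 ± 96.1 units after 2 days, 4366 ± 130.2 after 2 hours and 1508 ± 95.2 in untreated cells, so it rose at 2 hours (log2 change 1.53, limma adjusted p = 5.23e-11) and had a log2 change of 0.01 at 2 days. The biliverdin reductases Blvrb (0.76) and Blvra (0.45) rose at 2 days. The Blvra call was lost with normexp and without replicate 1 of the 2-day group.

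Of 16 tested regulators of P450 genes, 5 fell and 1 rose at 2 days, with a median log2 change of -0.16. Nr1i2, which encodes PXR, averaged 415 ± 21.1 units after 2 days, 626 ± 34.5 after 2 hours and 782 ± 92.0 in untreated cells (log2 change at 2 days -0.91, limma adjusted p = 5.66e-07). Hnf4a averaged 1236 ± 70.6 units after 2 days, 1904 ± 218 after 2 hours and 2187 ± 290.2 in untreated cells (log2 change at 2 days -0.82, limma adjusted p = 6.65e-06). The level of both was lowest after 2 days. Cebpb (-0.54), Nr1h4, the bile acid receptor FXR (-0.53), and Rxra, the partner of CAR and PXR (-0.42), also fell, but these 3 calls were lost with normexp. Without replicate 1 of the untreated group the calls of Nr1h4 and Rxra were lost, and that of Nr1h4 also without replicate 1 of the 2-day group. Nr1i3, which encodes CAR, averaged 166, 186 and 188 units after 2 days, after 2 hours and in untreated cells. It was not called (log2 change at 2 days -0.17). These levels are near the array medians of 143.2, so the missing call does not show that Nr1i3 was unchanged. The same limit holds for the uncalled Nr3c1, Ppara and Ahrr, which averaged 161, 148 and 147 units in untreated cells. Bcl6, a transcriptional repressor active in male liver, rose at both times (log2 changes 0.61 at 2 days and 0.83 at 2 hours), and Foxa2 fell at 2 hours (-0.74), a call lost with normexp. No test related these genes to the P450 genes.

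**Figure D4:**
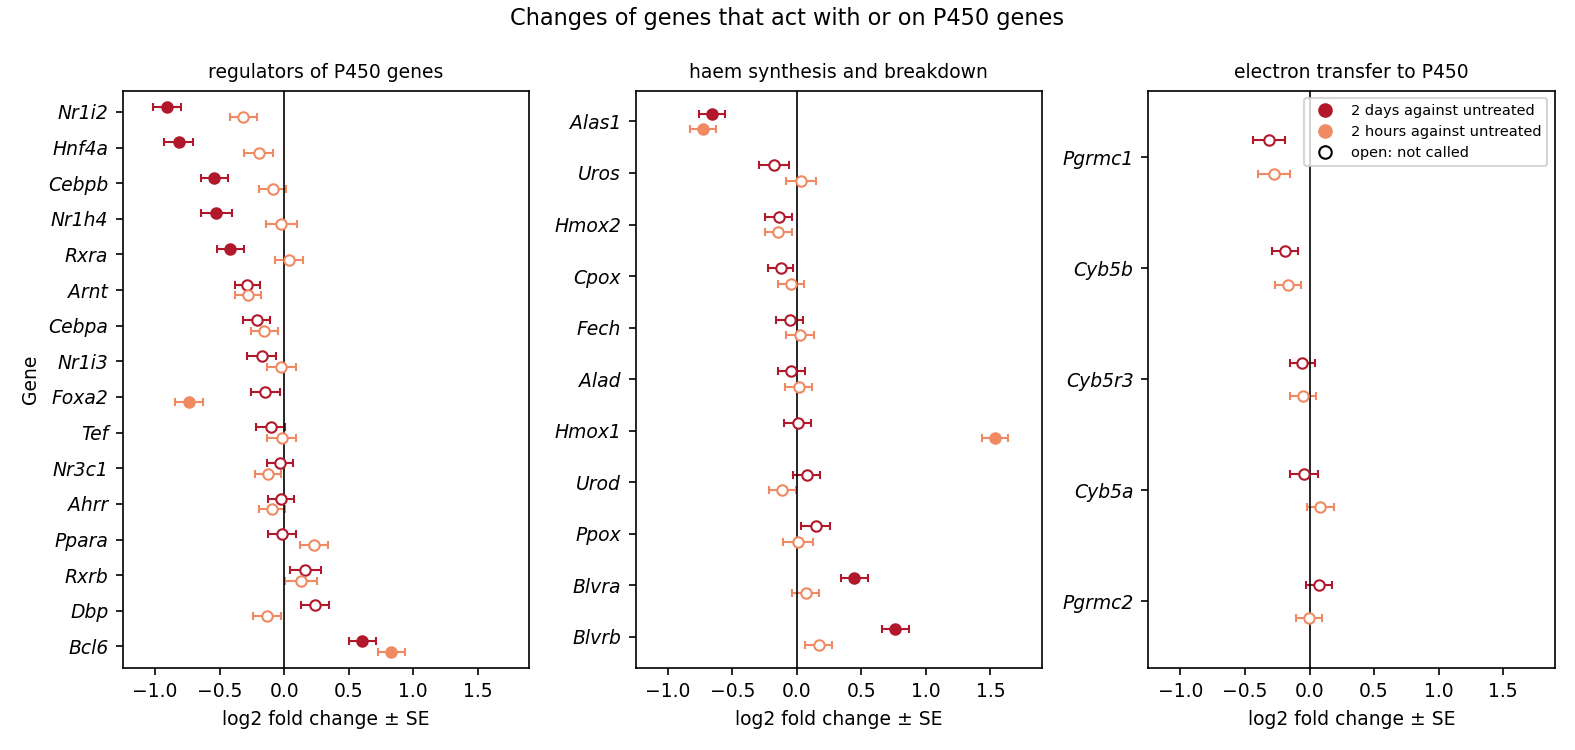
Log2 fold change with standard error of the tested regulators of P450 genes (left), haem genes (middle) and electron transfer genes (right), for 2 days against untreated (dark red) and 2 hours against untreated (orange), with open circles for genes not called. Nr1i2 (-0.91) and Hnf4a (-0.82) are lowest among the regulators at 2 days, and Hmox1 stands out at 2 hours (1.53).

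P450 genes outside families 1 to 4 were tested for 12 members, of which 4 fell at 2 days. Cyp17a1, a steroid 17α-hydroxylase, averaged 213 ± 13.8 units after 2 days, 1643 ± 217 after 2 hours and 1494 ± 151 in untreated cells (log2 change at 2 days -2.81, limma adjusted p = 1.41e-15). Cyp39a1 (-0.65), Cyp27a1 (-0.53) and Cyp7a1 (-0.40), all enzymes of bile acid synthesis, also fell. Cyp7a1 averaged 128 units after 2 days, 127 after 2 hours and 170 in untreated cells. It passed the filter only through the untreated cells, as both exposed groups lay below the array medians of 143.2. Its calls at both times therefore set untreated cells against a level near background. The second Cyp39a1 probe changed by 0.01, the call of Cyp27a1 was lost with normexp, and that of Cyp7a1 with normexp, without either 2-day array and without replicate 1 of the untreated group. At 2 hours Cyp7b1 rose (0.47) and Cyp26a1 (-0.60) and Cyp7a1 (-0.42) fell, calls that normexp, the mean over probes and the loss of replicate 2 of the 2-hour group each ended.

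Cell type markers moved at 2 days as well. The 3 P450 genes that mark the set, Cyp2b10, Cyp3a11 and Cyp2e1, were already counted among the members that fell and are not a further observation. Of 7 tested hepatocyte markers, 3 fell at 2 days (Asgr1 -1.60, Apoh -1.12 and Apoa1 -0.82). Ttr (-0.28), Serpina1a (-0.22), Alb (-0.13) and Fgb (0.05) were not called, and Alb and Fgb lay near the array median. All 7 summed to 53186 to 56115 units after 2 days, 83704 to 84515 after 2 hours and 81791 to 82633 in untreated cells. Apoa1 and Ttr made up most of that sum, with means of 41566 and 32718 units in untreated cells. Of 5 tested macrophage markers, 2 rose at 2 days (C1qa by 0.36 and Cd163 by 0.31), but the C1qa call was lost without replicate 2 of the 2-day or of the untreated group and the Cd163 call under 13 of 17 alternatives, each left-out array among them. Every macrophage marker stayed under 200 units on average in the 2-day and untreated groups, and sums were 882 to 920 units after 2 days, 779.9 to 799 after 2 hours and 768 to 793 in untreated cells. Of 3 tested bile duct markers, Sox9 rose (1.78 at 2 days, 0.79 at 2 hours), and Krt7 and Krt19 were not called. The sums were 3180.2 to 3424 after 2 days, 1808 to 1828 after 2 hours and 1192 to 1208 in untreated cells. Sox9 made up most of them, as Krt7 and Krt19 averaged 158 and 233 units after 2 days. Of 4 tested stellate cell markers Acta2 rose (0.67) and Reln fell (-0.82), with sums of 2644 to 3413 after 2 days, 2065 to 2274 after 2 hours and 2019 to 2468 in untreated cells. The Acta2 call was lost with normexp, with the mean over probes, without replicate 2 of the 2-day group and without replicate 1 of the untreated group, and 2 of its other probes (0.13 and 0.17) were not called. The second Reln probe changed by 0.14 and was not called. At 2 hours Reln was called higher (0.43), a call lost with normexp, with the mean over probes and without any 1 of the 2-hour or untreated arrays. Stab2, of 6 tested endothelial markers, fell (-0.37), a call lost with normexp, without either 2-day array and without replicate 1 of the untreated group, and the 1 tested leukocyte marker, Cd3e, had a log2 change of -0.12 and was not called. The part of these cell types in the P450 results was not tested.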

How the data were processed

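RNA from primary mouse hepatocytes was hybridised to 6 Illumina arrays. The authors deposited 1 linear intensity per probe and array for 45281 probes, with no value below 96.5. The 6 deposited intensity columns shared 1 distribution, as sorted values differed by at most 0.333% at any rank. The sources used here do not name the software behind them. Probes were named by the platform table (34885 with 1 symbol) and symbols updated through GRCm38.p6 RefSeq identifiers. No scaling was added before taking log2 of the deposited intensity. A probe passed above the array's 50th percentile on at least 2 arrays, and the brightest passing probe stood for its gene. limma 3.58.1 (R 4.3.3) fitted group means to all 6 arrays with empirical Bayes. A call needed a p under 0.05 after Benjamini-Hochberg adjustment over 13438 genes, and the fit was tested on simulated data. Precision is limited by 2 arrays per group.

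Named with values were members called in any comparison, members whose probes differ, the 3 members brightest in untreated cells, and called genes of the lists on electron transfer, haem, regulators, other P450 genes and cell types. Values of every array go with the 12 largest calls at 2 days, calls at 2 hours and members that rose. The members and lists were chosen with earlier results of these data known. Promoters were searched with Python 3.11.15 and aligned with Biopython 1.88. Alternatives were normexp (offset 16), cyclic loess, median centring, other filters, other probe summaries, a trended prior, the compared groups alone, a replicate block and leaving out each array.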

Additional observations from a re-analysis of the deposited data

Results flagged for a closer look

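The change from untreated cells differed between the 2 exposure times for 22 P450 genes, for which the direct contrast of 2 days with 2 hours passed limma's threshold. TNFα exposure and time in culture cannot be told apart in this contrast. The log2 difference of 2 days minus 2 hours was widest for Cyp2a12 (-2.79), Cyp2b10 (-2.69), Cyp3a11 (-2.58), Cyp2b23 (-2.50) and Cyp2a5 (-1.76). It lay between -1.38 and -0.86 for Cyp2d10 (-1.38), Cyp2c67 (-1.31), Cyp2c70 (-1.29), Cyp2d9 (-1.26), Cyp2d22 (-1.16), Cyp2f2 (-1.15), Cyp2e1 (-0.97), Cyp3a25 (-0.89) and Cyp2d26 (-0.86). Smaller differences were those of Cyp4a12a (-0.68), Cyp2s1 (-0.50), Cyp3a13 (-0.46), Cyp4f14 (-0.44), Cyp2c37 (-0.40), Cyp2d40 (-0.36) and Cyp4a12b (-0.30). Cyp4v3 (0.47) was the gene of the 22 with a difference above 0.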

How the results depend on the processing

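Of the 19 P450 calls at 2 days, 14 were kept under all 17 alternatives, and none changed direction. Of the 22 calls between 2 days and 2 hours 15 were kept, and of the 2 at 2 hours 0. With normexp, 0 members were called higher at 2 days, 0 lower at 2 hours and 0 higher at 2 days than at 2 hours. Normexp left 15 members called lower at 2 days, and over all genes 348 higher and 306 lower calls at 2 days in place of 906 and 795. The cause was not tested. At 2 hours, cyclic loess left 1 member called lower and the mean over probes 0. Leaving out 1 array at a time, where a lone array is assumed to vary like the other groups, gave 17 to 20 members lower and 0 to 1 higher at 2 days, 0 to 2 lower and 0 to 1 higher at 2 hours, and 16 to 22 lower and 0 to 1 higher between 2 days and 2 hours. The 2 lower at 2 hours without replicate 2 of the untreated group were Cyp3a11 and Cyp2c67, not Cyp2b10 and Cyp2b23. With the compared groups alone, 22 were lower between the times, Cyp2c23 being added. Cyp4v3 was lost at 2 days without replicate 2 of the untreated group. Deviations of same-numbered arrays from their group means correlated at 0.04, -0.08 and -0.15 over genes. With 2 arrays per group, these values cannot decide whether the arrays were paired. With the replicate number as a block, 18 members were called lower at 2 days, 2 at 2 hours and 20 between the times. A block with the untreated numbers crossed, chosen after seeing the data, gave 20 lower and 2 higher calls at 2 days and 3 lower at 2 hours.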
